A study of Mus musculus with 12 samples.

Results

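The genes described here are 48 homeobox genes outside the Hox clusters that pattern the embryo, such as the Dlx, Lhx, Irx and Nkx families. They were taken by name, out of 21887 protein-coding genes with a position on an autosome, X or Y. The rule used no measured value, but the choice was made with earlier results of these data known. Chromatin immunoprecipitation with sequencing mapped H3K27me3 and H3K4me3 in sorted cKit+ cells of the bone marrow of C57BL/6 mice; cKit is a receptor of blood stem and progenitor cells. The WT group was littermates with intact Ints11, and the KO group was mice with floxed Ints11 and Mx1Cre, a recombinase whose promoter responds to interferon. Ints11 is the catalytic subunit of Integrator, which cleaves nascent RNAs. Cells of both genotypes were sorted 4 days after poly(I:C), the interferon inducer, so that the WT cells had met it too; whether the WT mice carried Mx1Cre is not said in the labels, and neither is the age of the mice. There were 2 mice per genotype, WT_407 and WT_409 against KO_399 and KO_401, each with 1 peak list per mark, 8 lists in all; the label numbers were read as mice. Poly(I:C) acts on many cells of the marrow, and the lists do not show what share of the sorted KO cells had deleted the gene. A shorter domain in every cell and a missing domain in some cells cannot be told apart in such bulk chromatin.

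Homeobox genes encode transcription factors that bind DNA through the homeodomain, and each of these genes is switched on in only a few embryonic tissues. Elsewhere such genes are classic targets of the Polycomb complexes: complex 2 places H3K27me3 over a CpG-rich promoter, and the mark spreads over the gene and its surroundings as a domain. H3K4me3 marks active or poised promoters, and a promoter with both marks is called bivalent.

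Each gene was measured in a window from 20 kb below to 20 kb above its span, in mm10 coordinates. Per library the measures were the number of bases under peaks of a mark (covered bases), the full width of the widest peak that touched the window, and the number of peaks (pieces). A gene was counted as lower in KO when both KO values lay under both WT values, and as higher in the opposite case. With 2 mice against 2 an exact permutation test over the 6 possible labelings reaches p = 0.33 at best, so no difference here can pass a threshold of 0.05. The windows of Dlx1 and Dlx2, Dlx3 and Dlx4, Dlx5 and Dlx6, and Six2 and Six3 overlap, so that 8 of the genes are not separate observations. The window of Evx2 also holds Hoxd11, Hoxd12 and Hoxd13.

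The H3K27me3 lists held 6542 to 11930 peaks and the H3K4me3 lists 25090 to 27676. All listed peaks had a deposited fold of at least 5, so a gene without a listed peak may still carry a weaker one. Read totals are not part of the files. For H3K27me3, the background recovered from the lists was 3.09 and 3.15 reads per position in WT_407 and WT_409. It was 3.30 and 3.67 in KO_399 and KO_401. The H3K4me3 libraries had a background of 2.23, 1.94, 2.65 and 1.93 reads, with the mice ordered likewise. A background is not a read total, and the part of depth or enrichment in the lengths was not tested. The label of the cells was checked by H3K4me3 within 2 kb of marker genes: all 8 progenitor markers (Kit, Cd34, Gata2, Myb, Flt3, Meis1, Runx1 and Spi1) had it in every library. Of the 8 B lymphoid markers 5, 8, 6 and 5 had it in WT_407, WT_409, KO_399 and KO_401, with a summed length of 8111 to 29097 bp, the highest in WT_409. Of the 8 stromal and bone markers 6 to 8 had it, with 17459 to 27267 bp in all and none at 0 in every library, and of the 4 endothelial markers 2 to 4, with 4612 to 10291 bp. KO_399 was highest for both of these lists. Of the 6 erythroid markers 2, 5, 2 and 2 had it, again most in WT_409, and Alas2 in none. Of the 5 T and NK markers 3 had it in every library, without Cd3e and Cd3g, and all 5 neutrophil markers had it in every library, with 31593 to 42796 bp.

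Polycomb targets are known for CpG-rich promoters, and some of these genes had few CpG in the short stretch before the start, so promoter sequences are shown. CpG-rich stretches farther off or at other starts were not looked for. RefSeq starts on GRCm38.p6 (mm10 coordinates) were at hand for 36 of the 48 genes. They were not used for Alx4, Dlx3, Dlx4, Dlx5, Dlx6, En2, Irx1, Irx5, Irx6, Lhx5, Otx1 and Pitx1. The 250 bases before the start are given for 6 genes, chosen after their values were seen. Dlx2 at chr2:71546755-71547004 (minus strand) and Gbx2 at chr1:89931177-89931426 (minus strand) had a start under both marks in all 4 mice. En1 at chr1:120602237-120602486 (plus strand) and Emx1 at chr6:85187681-85187930 (plus strand) had many CpG but no H3K4me3, and Otx2 at chr14:48667645-48667894 (minus strand) and Lhx8 at chr3:154330561-154330810 (minus strand) had few CpG and no H3K4me3. The start of each of the last 4 lay under H3K27me3 alone in all 4 mice. Capitals mark CpG, the letters CG, which read the same on both strands.
Dlx2: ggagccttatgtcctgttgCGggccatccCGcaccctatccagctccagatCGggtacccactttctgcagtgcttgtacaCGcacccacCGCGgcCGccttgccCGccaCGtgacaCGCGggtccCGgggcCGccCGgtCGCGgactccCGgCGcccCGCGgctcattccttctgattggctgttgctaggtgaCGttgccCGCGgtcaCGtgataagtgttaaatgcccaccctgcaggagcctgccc
Gbx2: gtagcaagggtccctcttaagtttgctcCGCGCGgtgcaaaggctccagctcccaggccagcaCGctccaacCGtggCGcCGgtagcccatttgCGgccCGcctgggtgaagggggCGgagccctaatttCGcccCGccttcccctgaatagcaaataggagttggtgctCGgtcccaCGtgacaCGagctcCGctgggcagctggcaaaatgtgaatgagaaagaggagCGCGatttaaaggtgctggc
En1: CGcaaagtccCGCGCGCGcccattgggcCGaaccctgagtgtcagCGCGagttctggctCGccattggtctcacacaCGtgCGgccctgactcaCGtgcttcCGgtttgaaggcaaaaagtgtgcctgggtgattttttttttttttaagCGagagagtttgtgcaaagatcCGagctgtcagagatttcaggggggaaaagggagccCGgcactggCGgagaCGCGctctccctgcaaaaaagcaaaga
Emx1: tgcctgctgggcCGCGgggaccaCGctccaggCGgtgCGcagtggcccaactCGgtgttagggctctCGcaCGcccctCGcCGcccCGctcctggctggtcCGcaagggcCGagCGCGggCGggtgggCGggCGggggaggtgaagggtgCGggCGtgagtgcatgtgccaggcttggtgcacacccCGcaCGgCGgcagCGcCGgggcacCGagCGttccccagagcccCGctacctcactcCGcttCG
Otx2: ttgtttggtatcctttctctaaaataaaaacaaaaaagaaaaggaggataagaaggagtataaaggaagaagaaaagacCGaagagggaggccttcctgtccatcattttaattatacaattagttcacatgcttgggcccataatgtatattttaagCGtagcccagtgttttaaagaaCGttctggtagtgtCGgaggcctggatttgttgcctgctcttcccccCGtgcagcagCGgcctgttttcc
Lhx8: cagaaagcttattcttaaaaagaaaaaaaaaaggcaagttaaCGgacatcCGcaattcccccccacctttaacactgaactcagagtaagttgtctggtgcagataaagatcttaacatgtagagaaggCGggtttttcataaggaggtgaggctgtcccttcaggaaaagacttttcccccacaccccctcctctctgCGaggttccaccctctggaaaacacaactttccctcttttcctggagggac
These stretches hold 24, 18, 19, 30, 6 and 4 CpG in the order printed. Over 300 bases, from 250 before to 50 after the start, the 36 genes had a median of 20 CpG (range 4 to 42), against 13.0 over 17492 genes with a start and 21.0 over the 1954 genes whose start lay under H3K27me3 in all 4 libraries. At least 1 CG was found in 100% of the 36 and in 94.8% of all such windows.

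H3K27me3 was present at these genes in both genotypes, over domains that were shorter in KO. All 48 genes had the mark in both WT libraries and 47 had it in all 4. The exception was Irx6, which had no listed peak in KO_399. Covered bases averaged 24034.4 and 22593.6 bp per gene in WT_407 and WT_409, against 17065.4 bp for KO_399 and 20152.8 bp for KO_401. Both KO libraries thus lay below both WT libraries, and KO_401 lay between KO_399 and WT. The WT mean was 23314.0 ± 1018.8 bp and the KO mean 18609.1 ± 2183.1 bp (SD, n = 2 each), or 79.8% of WT, a difference larger than the spread within genotypes (two-sided exact permutation p = 0.33, the smallest possible, n = 2 each). Of the 48 genes, 44 were lower in both KO libraries and none was higher. Over all 8741 genes with H3K27me3 in any library, 72.6% were lower by the same rule and 0.0229% higher. The 4 genes whose genotypes overlapped were Dlx1, Dlx2, Lhx9 and Lmx1a. The KO mice differed from each other: KO_399 had the fewest bases at 47 of the 48 genes, and at 47 it had fewer than KO_401, as at 76.3% of all genes with the mark. Of the 40 genes whose windows overlap no other of these genes, 38 were lower. Without KO_399, the library with the shortest domains, the mean difference of KO minus WT was -3161 bp in place of -4705 bp. The count of lower genes was then 44, but by its rule this count cannot fall when a library is left out.

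**Figure D1:**
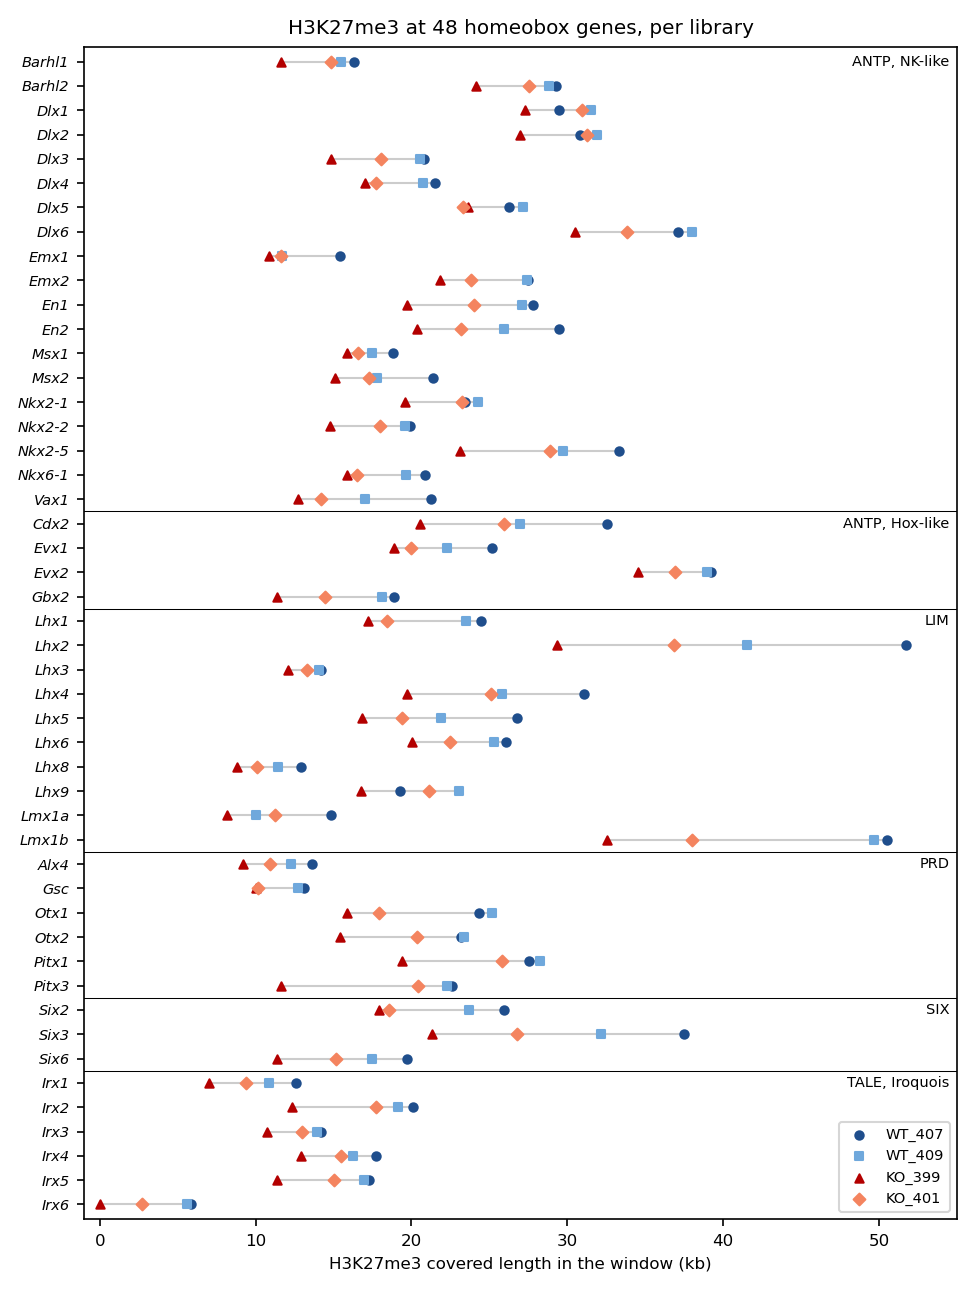
H3K27me3 covered length (kb, horizontal axis) in the window of each of the 48 genes (1 line each, by homeobox class), with 1 point per library and a grey line from the lowest to the highest library. The KO_399 triangles are the leftmost point at 47 genes, and the WT points lie to the right of both KO points at 44.

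The NK-like genes of the ANTP class were the largest group, 19 genes, and 17 of them were lower in both KO libraries. Their KO mean was 70.5% (Vax1) to 95.6% (Dlx1) of the WT mean, with a median of 82.9%. The Dlx genes act in limb, face and forebrain interneurons and lie in pairs of neighbours. Dlx1 (chromosome 2, 71528113 to 71533981) had 29436 and 31497 bp in the WT mice against 27292 bp in KO_399 and 30954 bp in KO_401. Its neighbour Dlx2 (chromosome 2, 71543408 to 71546754) had 30783, 31901, 26941 and 31257 bp. Wherever 4 values stand together, here and below, WT_407 comes first, then WT_409, then KO_399, and KO_401 last. At both genes only KO_399 lay below the WT range. The window of Dlx1 cuts its domain in the WT mice, where the 1 peak measured 30783 and 32824 bp in full. With a window of 50 kb the difference of KO minus WT was -2918 bp at both genes, against -1344 bp for Dlx1 and -2243 bp for Dlx2. The genotypes overlapped there too. Dlx6 (37113, 37985, 30482 and 33832 bp) and Dlx5 (26266, 27163, 23638 and 23301 bp) were lower in both KO libraries.

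Nkx2-1, the factor of thyroid, lung and ventral forebrain (chromosome 12, 56531935 to 56536908), kept 89.8%, with 23429 and 24270 bp in the WT mice, 19569 bp in KO_399 and 23273 bp in KO_401, close below WT_407. Nkx2-5, which is needed for the heart, had 33329, 29751, 23141 and 28888 bp and kept 82.5%. Msx1, a factor of tooth, face and limb, had 18818 and 17489 bp in WT, against 15878 and 16539 bp in KO (89.3%). Barhl2, a factor of the nervous system, had 29292 and 28805 bp in WT, against 24151 and 27566 bp in KO (89.0%). The lowest of the class was Vax1, which patterns the optic stalk, with 21238 and 16993 bp in the WT mice against 12727 and 14223 bp in the KO mice. The domains of En1 (27789, 27109, 19734 and 23993 bp), which builds the midbrain and hindbrain, and Emx2 (27504, 27391, 21855 and 23788 bp), a factor of the cerebral cortex, were close between the WT mice and lower in both KO mice.

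All 4 Hox-like genes of the ANTP class were lower in both KO libraries. Gbx2, which sets the border of midbrain and hindbrain (chromosome 1, 89927962 to 89931176), kept 69.8%, with 18860, 18126, 11360 and 14452 bp. Evx2, at the end of the Hoxd cluster (chromosome 2, 74652989 to 74661520), kept 91.4%, with 39234, 38943, 34513 and 36921 bp. Its domain is that of the Hoxd cluster and runs past the window, which caps these values. Cdx2, the intestinal factor, had 32570, 26934, 20516 and 25921 bp.

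The LIM genes, whose proteins carry LIM domains beside the homeodomain, included the 2 with the most covered bases, Lmx1b and Lhx2, in windows of 120244 and 70467 bp. Of the 10 genes 8 were lower in both KO libraries, with a median of 77.8% of WT. Lmx1b, which specifies the dorsal limb and dopaminergic neurons (chromosome 2, 33560965 to 33641208), had 50538 and 49653 bp in the WT mice against 32538 and 37984 bp in the KO mice, or 70.4%. Lhx2, a factor of eye and forebrain (chromosome 2, 38339271 to 38369737), had 51745, 41497, 29313 and 36854 bp, or 71.0%. At Lhx2 the WT mice differed by more than WT_409 differed from KO_401. Lhx3, a pituitary and motor neuron factor, had 14173 and 14096 bp in WT, against 12067 and 13268 bp in KO (89.6%). Lhx9, which acts in the gonad, overlapped between genotypes with 19258, 23060, 16732 and 21105 bp, and so did Lmx1a with 14866, 10028, 8182 and 11226 bp.

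All 6 genes of the PRD class and Six2, Six3 and Six6 were lower in both KO libraries. Otx1, a factor of the cortex (chromosome 11, 21994764 to 22001651), kept 68.2%, with 24358 and 25193 bp in the WT mice against 15866 and 17923 bp in the KO mice. Its relative Otx2, which is needed for the forebrain, had 23169, 23402, 15444 and 20352 bp (76.9%). Pitx1, the hindlimb factor, kept 81.0%, the highest share of its class. Six3, a factor of forebrain and eye (chromosome 17, 85613608 to 85626191), kept 69.1%, with 37457, 32166, 21318 and 26785 bp. Six2, which maintains nephron progenitors, had 25933 and 23714 bp in WT, against 17945 and 18542 bp in KO (73.5%).

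The 6 Iroquois genes of the TALE class, which pattern neural tissue and heart, were lower in both KO libraries too. Irx6 (chromosome 8, 92674289 to 92680956) had the shortest domain of all 48 genes in WT, 5853 and 5579 bp, and none and 2695 bp in KO_399 and KO_401, or 23.6% of WT. Irx1 (chromosome 13, 71958232 to 71963723) had 12594 and 10868 bp in the WT mice against 7018 and 9385 bp in the KO mice, or 69.9%. The other 4 kept 76.7% (Irx2) to 84.3% (Irx3).

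The share kept was set beside that of other genes. Over the 7521 genes with the mark in both WT libraries the median KO length was 58.7% of WT, and over the 48 it was 79.7%, from 23.6% to 95.6%. These genes have long domains, and among other genes the share kept was lowest for short ones: it was 19.6% for 1253 genes under 2000 bp in WT, 58.5% for 2886 genes up to 5000 bp, 63.9% for 2046 up to 10000 bp and 63.0% for 946 up to 20000 bp. Of the 48 genes, Irx6 alone had a length between 5000 and 10000 bp, and it kept 23.6%. The 18 from 10000 to 20000 bp kept a median of 78.1%. At 20000 bp and more, 342 other genes kept 67.5% and 29 of the 48 kept 80.0%. The share of other genes that were lower was 94.1% and 97.4% at these 2 lengths, beside 17 of 18 and 26 of 29 of the homeobox genes. A second list of 66 non-Hox homeobox genes, such as Isl1 and Tlx1, had a median of 72.3% with 64 genes lower and none higher. Of 24 homeobox genes used in blood or in most cells, such as Meis1 and Hhex, 9 had no H3K27me3 in any library, and the 15 with it in both WT libraries had a median of 62.5%.

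**Figure D2:**
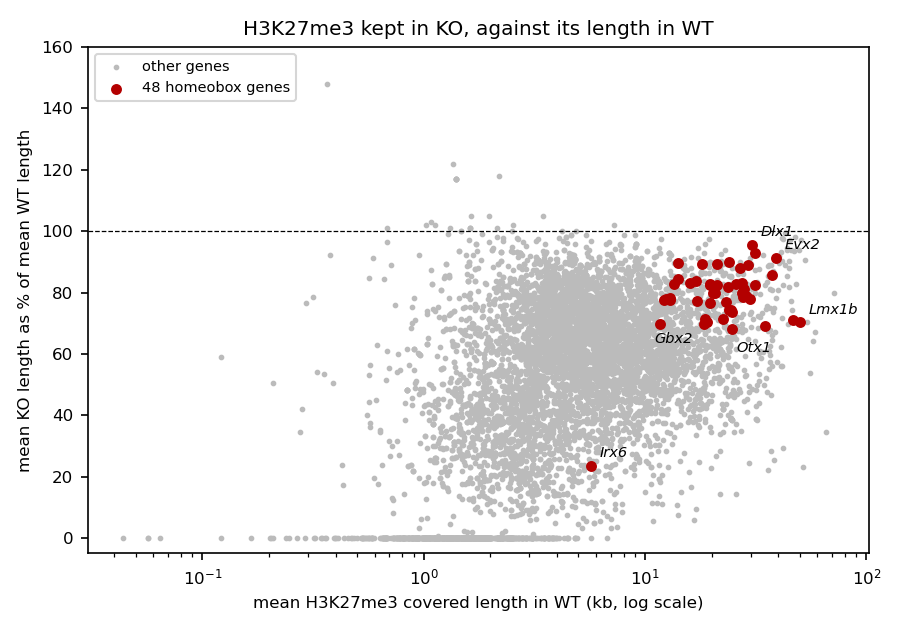
Mean KO covered length as a percent of mean WT covered length (vertical axis) against mean WT covered length (kb, log scale) for the genes with H3K27me3 in both WT libraries, with the 48 homeobox genes in red and other genes in grey. The red points lie at long WT lengths and between 68.2% and 95.6%, apart from Irx6 at 23.6%; the dashed line marks equal lengths.

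Single peaks were shorter as well, and some domains were in more pieces. The widest peak per gene averaged 17794.9, 18161.6, 9629 and 13844.6 bp (two-sided exact permutation p = 0.33, n = 2 each). It was lower in both KO libraries at 43 of the 48 genes and higher at none, against 68.1% lower over all genes with the mark. Higher calls made up 0.0229% there. The exceptions were En1, Nkx2-1, Msx2, Irx4 and Nkx2-5. At Nkx2-1, of the genes with a high share of bases kept, the widest peak was 14401, 14430, 6940 and 16138 bp, so that KO_401 lay above WT. Otx1, with a low share of bases kept, had widest peaks of 13657, 14455, 12518 and 13492 bp, close together, and the bases not covered were thus outside its widest peak. Barhl2 was the opposite case, with 28821, 28805, 8250 and 18686 bp and a high share of bases kept. The widest peak was 24886, 28126, 13217 and 24731 bp at Six3, 6589, 6327, 2738 and 5424 bp at Gbx2 and 12594, 9823, 3630 and 5911 bp at Irx1. In these 3 genes KO_399 was the shortest by far. At Lhx2 it was 29253, 30229, 11562 and 18119 bp, at Vax1 14951, 14005, 10003 and 12653 bp, and at Irx6 2696, 2799, 0 and 2695 bp. Msx1 (18818, 14323, 9015 and 9163 bp), Lhx9 (18738, 18553, 10565 and 12514 bp) and Lhx3 (14173, 14096, 11600 and 13268 bp) were shorter in both KO mice although they kept much of their bases. At Evx2 the widest peak is that of the Hoxd cluster, 69159, 73279, 32172 and 63414 bp. The number of pieces averaged 3.792, 2.917, 4.250 and 3.417, and the genotypes overlapped (two-sided exact permutation p = 0.667, n = 2 each). The count was higher in both KO libraries at 9 genes, namely Barhl1, Cdx2, Dlx1, Dlx2, Dlx5, Dlx6, Irx1, Lhx6 and Pitx3, and lower at 6, namely Evx1, Gsc, Irx6, Otx1, Pitx1 and Six2. Of the 40 genes whose windows overlap no other of these genes, 5 had more pieces in both KO libraries and 5 had fewer. Over all genes with the mark 2.49% had more pieces and 20.8% fewer, but these shares were not matched for domain length.

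Dlx1 and Dlx2 show the difference between bases and pieces. Both genes lay under 1 common peak of 30783 bp in WT_407 and 32824 bp in WT_409. In KO_401 the widest peak was 30218 bp, beside 1 smaller piece, and in KO_399 it was 14222 bp among 7 pieces. With gaps of up to 1 kb joined, the widest stretch was 24566 bp in KO_399 and 31911 bp in KO_401. At Lmx1b the widest peak was 24991 and 23159 bp in the WT mice against 5670 and 10453 bp in the KO mice, but with gaps joined it was 26456, 24187, 23112 and 23059 bp. The shorter single peaks of Lmx1b were thus mostly breaks of up to 1 kb. At Six6, a factor of retina and pituitary, the widest peak was 18228 and 15792 bp in the WT mice against 5019 and 13506 bp in the KO mice. With gaps joined, 1 gene of the 48 had more pieces in both KO libraries.

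The bases without a peak in KO lay mostly near the edges of stretches covered in WT, and most gene starts stayed covered. All 36 genes with a known start had H3K27me3 over that base in both WT libraries and in KO_401, and 34 had it in KO_399, where the starts of Six3 and Lhx3 were not covered. Over all 17492 genes with a start, 11.2% had it in all 4 libraries. From 5 to 10 kb before the start the mark covered on average 55.3% and 50.3% of the bases in WT_407 and WT_409 and 30.2% and 41.0% in KO_399 and KO_401. From 5 to 10 kb after the start it covered 87.9%, 82.7%, 65.8% and 78.4% in the same order. The domains thus reached farther on the transcribed side in every library, and both flanks were covered less in KO.

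**Figure D3:**
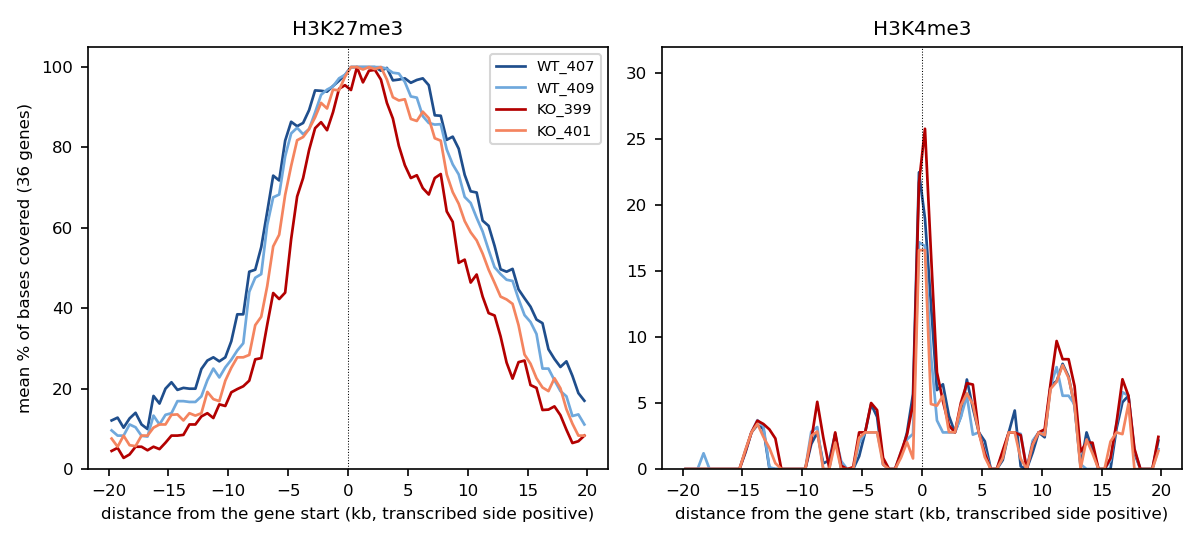
Mean percent of bases covered in bins of 500 bp by distance from the gene start (kb, transcribed side positive) over 36 homeobox genes, for H3K27me3 (left) and H3K4me3 (right, other scale), with 1 line per library. The H3K27me3 lines meet near 100% at the start and the KO lines lie below the WT lines from 5 to 10 kb on either side, while H3K4me3 is a narrow peak of 16.6% to 25.8% at the start.

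Of the bases covered in both WT libraries within 500 bp of the edge of such a stretch, KO_399 covered 27% and KO_401 53.7% around the 48 genes. Such an edge can face a gap between pieces of a domain as well as its outer border, and these were not told apart. At more than 5 kb from the edge KO_399 covered 95.6% and KO_401 98.9%. The WT mice give the measure of what an edge does between mice of 1 genotype: of WT_409 bases within 500 bp of an edge, WT_407 covered 81.6%, KO_399 18.1% and KO_401 42.7%. Of WT_407 bases there, WT_409 covered 56.4%, KO_399 15.7% and KO_401 35.0%. Both KO libraries lay below the other WT library in each range of distance. Around other genes with the mark the values for bases of both WT libraries were 17.6% and 51.6% at the edge and 91.0% and 98.7% beyond 5 kb, so the order from edge to centre is not a property of the homeobox genes alone.

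**Figure D4:**
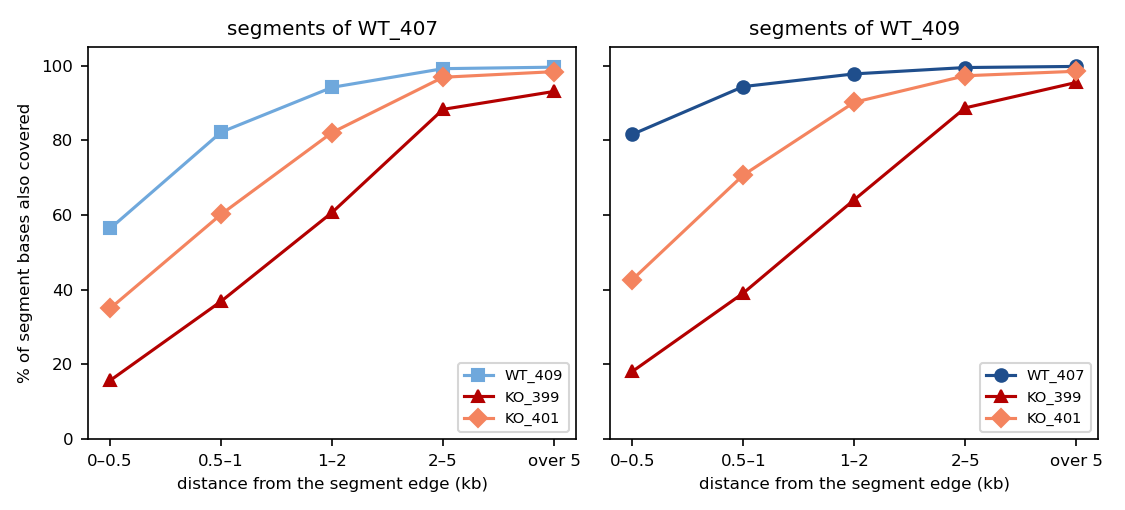
Percent of the H3K27me3 bases of WT_407 (left) and of WT_409 (right) around the 48 genes that each other library also covered, by distance from the edge of the stretch (kb). All lines go up with distance, to at least 93.1% beyond 5 kb, and the line of the other WT mouse lies above both KO lines in each range.

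H3K4me3 was sparse at these genes. It lay in the window of 31 of the 48 genes in any library, of 19 in all 4, and of none for 17: Barhl1, Cdx2, Emx1, Emx2, En1, Irx1, Irx4, Irx6, Lhx8, Lmx1a, Msx2, Nkx2-1, Nkx2-5, Otx2, Six3, Six6 and Vax1. At the start itself 7 of 36 genes had it in all 4 libraries, namely Dlx1, Dlx2, Gbx2, Gsc, Irx3, Lhx1 and Pitx3, and 27 had it in none, against 53.6% and 42.0% of all genes with a start. Within 2 kb of the start it was 9 in all 4 libraries, 6 in some and 21 in none. The promoters of these groups had medians of 25.0, 31.5 and 17.0 CpG per 300 bases, with ranges of 6 to 31, 16 to 42 and 4 to 37, so the groups overlapped. En1 and Emx1, whose sequences are printed above, are CpG-rich promoters of the group without H3K4me3.

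Covered bases of H3K4me3 did not separate the genotypes. They averaged 984.3, 800.6, 1235 and 810.0 bp per gene, with a WT mean of 892.4 ± 130 bp and a KO mean of 1023 ± 301 bp (SD, n = 2 each, two-sided exact permutation p = 0.667). KO_399 had the most at 21 of the 31 genes, and without it the difference of KO minus WT turned from 130 to -82.4 bp. KO_399 also had the highest background of the H3K4me3 libraries and the highest stromal and endothelial marker sums, as given above, and their part in this was not tested. Of the 31 genes 7 were higher in both KO libraries, and none was lower. Over all 16430 genes with H3K4me3 20.7% were higher and 3.18% lower, so the 7 of 31 are close to the background. The widest H3K4me3 peak was wider in both KO libraries at 5 genes (Alx4, Dlx3, Dlx4, Gbx2 and Six2) and narrower at 2 (Gsc and Lhx1), against 24.4% and 3.77% of all genes. Pieces were more at 1 gene, Six2, and fewer at none, against 3.97% and 2.57%.

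**Figure D5:**
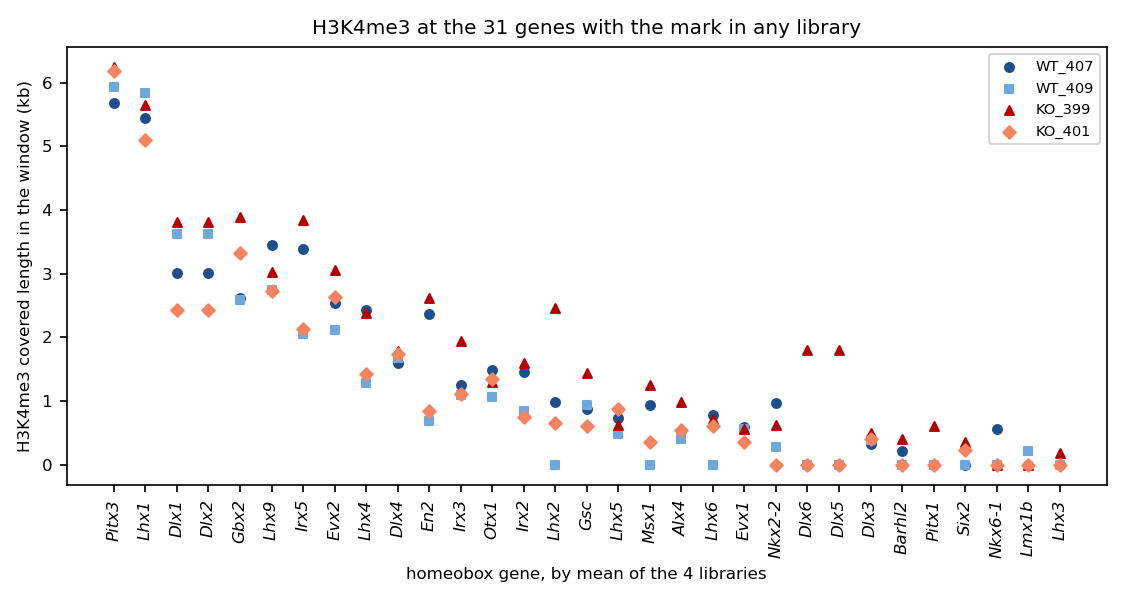
H3K4me3 covered length (kb) in the window of the 31 genes with the mark in any library, ordered by the mean of the 4 libraries, with 1 point per library. Pitx3 and Lhx1 lie above 5 kb in every library, KO_399 is highest at 21 genes, and at Dlx5, Dlx6, Pitx1 and Lhx3 it is the only library above 0.

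Pitx3 and Lhx1, the genes with the most H3K4me3, had part of it more than 2 kb outside their spans. These bases were not assigned to other genes. Pitx3, a factor of lens and dopaminergic neurons (chromosome 19, 46135281 to 46148325), had 5686, 5924, 6246 and 6185 bp. Of these, 2577, 2811, 3053 and 3083 bp lay more than 2 kb outside its span, in a window shared with Gbf1 and Elovl3. Lhx1, which builds head and kidney (chromosome 11, 84517975 to 84525534), had 5444, 5838, 5655 and 5102 bp, and 3758, 3864, 3611 and 3339 bp of it lay within 2 kb of its span. The values at Lhx1 overlapped between genotypes.

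Gbx2 had 2613 and 2583 bp in the WT mice against 3895 and 3319 bp in the KO mice, so that it was longer in H3K4me3 and, in the lists as deposited, shorter in H3K27me3 in both KO libraries. When lists were cut to equal covered length, its H3K27me3 difference turned to 5422 bp more in KO, and its H3K4me3 difference was 244 bp with the genotypes overlapping. Alx4, a factor of skull and limb, had 528 and 397 bp in the WT mice against 991 and 542 bp in the KO mice. Evx2 had 2542, 2111, 3060 and 2641 bp, and Dlx4 1597, 1683, 1785 and 1738 bp. The other genes that were higher in both KO libraries were Dlx3, Pitx3 and Six2. Six2 was the single gene with H3K4me3 in both KO libraries and in neither WT library, as peaks of 353 bp in KO_399 and 236 bp in KO_401. Neither peak was left with a fold of 10 or more or an overlap of 500 bp, and 1 of the KO libraries lost its peak at equal covered length. Counted only within 2 kb of the gene span, 4 genes were higher (Alx4, Dlx4, Gbx2 and Six2) and 1 lower, against 22.5% and 3.80% of all genes with the mark there.

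The H3K4me3 of Dlx1 and Dlx2 lay in the overlap of their windows, with 3003, 3617, 3807 and 2437 bp for both genes. Irx5 had 3388, 2060, 3836 and 2134 bp, and Lhx9 had 3450, 2744, 3020 and 2735 bp. None of these separated the genotypes. At Irx5 WT_407 and KO_399 were high and WT_409 and KO_401 low, and the same order held at En2, a factor of midbrain and cerebellum, with 2374, 694, 2617 and 849 bp, and at Lhx4, a pituitary factor, with 2426, 1289, 2386 and 1421 bp. En2 and Lhx4 were chosen after their values were seen. WT_407 and KO_399 also had the 2 highest backgrounds among the H3K4me3 libraries, and its part in this order was not tested. Of the Iroquois genes, Irx3 and Irx5 had the mark within 2 kb of their span in all 4 libraries, and the windows of Irx1, Irx4 and Irx6 held it in none. Irx2 had it within 2 kb of its span in WT_407 (597 bp) and KO_399 (706 bp), and farther out in all 4 libraries, with 751 to 899 bp. At Dlx5 and Dlx6 KO_399 alone had the mark, 1801 bp for both genes, whose windows overlap.

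Most of the H3K4me3 at these genes lay inside the H3K27me3 domain of the same mouse. The share of H3K4me3 bases under H3K27me3 was 88.6%, 87.1%, 81.5% and 83.4%, against 9.50%, 9.39%, 6.54% and 7.34% over the windows of all genes. The WT mean of bases under both marks was 784.8 ± 124 bp per gene, and the KO mean was 840.8 ± 234 bp (SD, n = 2 each, two-sided exact permutation p = 1.00). The genes with the most were Lhx1 (3921 and 4224 bp in the WT mice against 3744 and 3256 bp in the KO mice), Pitx3 (3949, 3958, 2754 and 4072 bp), Dlx1 and Dlx2 (3003, 3617, 3693 and 2437 bp for both) and Gbx2 (2613, 2583, 2621 and 3319 bp). Of 29 genes with such bases, 6 were higher in both KO libraries, namely Alx4, Dlx3, Dlx4, Evx2, Gbx2 and Six2, and 2, Lhx1 and Lhx9, were lower. The bases of Dlx3 lay more than 2 kb outside its span, where its window overlaps that of Dlx4. Of the 40 genes whose windows overlap no other of these genes, 3 were higher and 2 lower. Over all 6062 genes with bases under both marks 3.93% were higher and 28.2% lower. At Lhx9 these bases were 1626, 1736, 1082 and 921 bp.

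The strongest peaks of H3K27me3 at these genes ranked high within their lists. By the deposited q-value, the strongest peak per gene had a median percentile of 94.5, 94.9, 93.7 and 92.3 within the lists of WT_407, WT_409, KO_399 and KO_401. This sets the strongest of often several peaks in a window against all single peaks, which favours a high rank. No such rank is given here for other genes. In the authors' deposited fold, the strongest peak of Dlx1 and Dlx2 was the highest of all these genes in WT_407 (22.7) and WT_409 (24.8). The H3K4me3 peaks were weak within their lists, with median percentiles of 38.6, 38.8, 41.4 and 35.3 over the genes that had one. The size of the KO difference in H3K27me3 moved with the peaks that were kept. When the strongest peaks were kept in equal number, 41 of the 48 genes were lower, none was higher, and the median was 84.3% of WT, against 66.2% lower and 0.0795% higher over all genes. When lists were shortened from their weakest peaks to equal total length, 29 were lower and 1 higher, and the median was 89.2%. Over all genes 30.5% were then lower and 12.1% higher. The mean H3K27me3 difference then turned also at Otx1 (623 bp more in KO), Lmx1b (2458 bp) and Nkx2-1 (3486 bp), and that of H3K4me3 at Pitx3 (-526 bp). With peaks of a deposited fold of 10 or more, 44 were lower and none higher, against 68.5% and 0.0179% of all genes, and the median was 51.1%.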

How the data were processed

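Peaks of H3K27me3 and H3K4me3 were analysed in 8 libraries of 4 mice; the 4 input libraries were not used here. Per the labels' protocols, chromatin was fixed in 1% formaldehyde, sheared to 100 to 300 bp and read over 75 bases. The submitters' processing notes name mm10 as the build and, as tools, MACS2, Bowtie2, Trim Galore, FastQC, deepTools and SAMtools; versions and roles are not given in the sources used here. The authors deposited 1 narrowPeak list per library, so mice were not pooled. Each deposited row holds a score, a fold (the ratio of summit pileup to background) and the −log10 of the p-value and q-value. All of them belong to a peak, come from the authors and served here to describe, rank or filter peaks within 1 list. The strongest H3K27me3 folds per gene are also given side by side for the libraries. No deposited fold was under 5, a filter that no label records. H3K27me3 is a broad mark, and narrow calling breaks its domains.

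Windows, covered bases, widest peaks and pieces were computed with Python 3.11.15, numpy 2.4.6, pandas 2.3.3 and scipy 1.17.1, with a minimum overlap of 1 bp, after tests on simulated data. Background reads were solved from the deposited fold and −log10 p within 0.001, for 100% of H3K27me3 and 75.7% to 92.9% of H3K4me3 summits. Gene spans and starts came from RefSeq on GRCm38.p6, and 48 of 48 genes matched. Where a gene has several starts, the nearest to the 5′ end of its span was used. Some starts still lie well inside the span. That of Lhx4 is at 155742027 and that of Nkx2-2 at 147186402, while the 5′ ends are at 155751726 and 147195434. Marks and CpG at the start therefore do not always describe the 5′ end of the gene. No 2 lists of a mark shared more than 1 identical peak.

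The genes and lists were chosen with earlier results of these data known. Values per library are given for the 8 lowest and 8 highest ratios of H3K27me3, the 8 genes with the most H3K4me3, those with it in 1 genotype only and the 5 with the most bases under both marks; other named genes fill a family and were chosen after their values were seen. Alternatives were windows of 5 and 50 kb, a fold of 10, equal lists, joined pieces, an overlap of 500 bp and leaving out each library. The edge shares against 1 WT mouse, the counts within 2 kb of a gene span and the groups by WT length were chosen after seeing the data.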

Additional observations from a re-analysis of the deposited data

How the results depend on the processing

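For H3K27me3 at the 48 genes, the mean difference was -4705 bp and kept its direction under every alternative run. It ran from -9390 bp (fold of 10 or more) to -1480 bp (same covered length). The cut at a fold of 10 lay near the KO_399 median of the strongest peak per gene, 10.2. At this cut the mean length was 20745.5, 20560.8, 6425 and 16100.1 bp, and 29 genes had the mark in all 4 libraries. With a window of 5 kb, which holds fewer bases, the mean difference was -2127 bp, with 39 genes lower and a median of 88.2%. Evx2 (-60.5 bp), Msx1 (-110 bp) and Barhl2 (-706 bp) then overlapped between genotypes, while Irx6 kept -4368 bp. Dlx1 (98.0 bp) overlapped there as it did with the window of 20 kb. Without 1 library the mean difference was -6249 to -3161 bp and the median 72.8% to 87.4%. The count of lower genes was then 44 to 48, but no such count can fall when a library is left out. A fold of 10 or more gave a median of 51.1%, 0 genes with more H3K27me3 pieces, and for H3K4me3 4 genes with more covered bases, 3 with wider peaks, 0 with more pieces and 2 with more bases under both marks. An overlap of 500 bp gave 4, 3, 0 and 2 for these 4 counts, against 7, 5, 1 and 6. The same covered length gave 29 lower genes, 17 with more H3K27me3 pieces, 4 with more H3K4me3, 0 with more H3K4me3 pieces and a mean H3K4me3 difference of -130 bp against 130 bp; it turned the H3K27me3 difference at Otx1 (623 bp), Gbx2 (5422 bp), Lmx1b (2458 bp) and Nkx2-1 (3486 bp) and the H3K4me3 difference at Pitx3 (-526 bp). More H3K27me3 pieces were counted at 14 genes with a window of 5 kb, 22 with the same number of peaks and 1 with pieces joined, against 9, and at 18 without WT_407 or without KO_401 (13 to 18 without 1 library). A window of 50 kb gave 2 genes with more H3K4me3 pieces. Leaving out 1 library, when fewer libraries have to agree, gave 7 to 21 genes with more H3K4me3 (16 without WT_407, 21 without KO_401), 6 to 18 with wider peaks (13 without WT_407, 8 without WT_409, 18 without KO_401), 1 to 9 with more pieces (5 without WT_407, 3 without KO_399, 9 without KO_401) and 6 to 18 with more bases under both marks (13 without WT_407, 18 without KO_401); the mean H3K4me3 difference was -82.4 (without KO_399) to 343 bp. With stretches of either WT library, KO_399 covered 7.30% and KO_401 24.2% within 500 bp of an edge, and KO_399 92.3% beyond 5 kb. Apart from what the construction of each alternative explains, the cause was not tested. No paired analysis was possible because the genotypes share no mouse numbers. Depth limits the absent peaks: a summit reached a fold of 5 with 19.4 to 22.4 reads in the H3K27me3 libraries and with 13.6 to 17.2 in the H3K4me3 libraries.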
